A study of Homo sapiens with 12 samples.

Results

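The genes of adenine and adenosine handling were followed in HK-2 cells, a standard line of human proximal tubule epithelium, after 72 h in culture medium with or without suspended 2,8-dihydroxyadenine (DHA). They were chosen by function, as the enzymes that salvage adenine, oxidise it to DHA or process the nucleosides around it, together with the adenine carrier SLC43A3. The 10 members were APRT, XDH, HPRT1, ADA, ADK, PNP, MTAP, SLC43A3, AMPD2 and AMPD3, out of 57527 genes with a matched transcript, of which 16789 were tested, and all 10 were among those tested. The 4 groups were control cells given medium alone and cells given 60, 120 or 240 ug/ml of DHA, each group with 3 libraries (12 in all). No control given a carrier or other particles is described in the sources used here. The sources do not say either whether a group's libraries stem from separate cultures. The p-values therefore set differences against the spread of these libraries, and that spread may be technical.

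Adenine is recycled by APRT, which joins it to phosphoribosyl pyrophosphate (PRPP) to make AMP. Where APRT is missing, as in inherited APRT deficiency, XDH (xanthine dehydrogenase, also known as xanthine oxidase) oxidises adenine to DHA, which dissolves poorly and forms crystals in the kidney tubule. Xanthine oxidase inhibitors such as allopurinol and febuxostat act on this step. Most cellular adenine is released by MTAP from methylthioadenosine, a by-product of polyamine synthesis. Adenosine is either phosphorylated by ADK or deaminated by ADA to inosine, which PNP splits to hypoxanthine, the substrate of HPRT1.

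The promoter windows of 4 members on which the results turn are shown first: the pair that compete for adenine (APRT and XDH), the member with the largest fall at 240 ug/ml (ADA) and the enzyme that releases adenine (MTAP). Each runs from 250 bases before to 50 bases after the start site in RefSeq on GRCh38.p14 and is written 5′ to 3′ on the strand of the gene. Capitals mark matches on either strand to GGGCGG, the core of the box bound by SP1 and related factors. In the MTAP window they also mark a match to TATAAA, the letters of the TATA box motif, which lies at -215 from the start site. The APRT window lies at chr16:88811879-88812178 on the minus strand, the XDH window at chr2:31414693-31414992 on the minus strand, the ADA window at chr20:44651650-44651949 on the minus strand and the MTAP window at chr9:21802386-21802685 on the plus strand.
APRT: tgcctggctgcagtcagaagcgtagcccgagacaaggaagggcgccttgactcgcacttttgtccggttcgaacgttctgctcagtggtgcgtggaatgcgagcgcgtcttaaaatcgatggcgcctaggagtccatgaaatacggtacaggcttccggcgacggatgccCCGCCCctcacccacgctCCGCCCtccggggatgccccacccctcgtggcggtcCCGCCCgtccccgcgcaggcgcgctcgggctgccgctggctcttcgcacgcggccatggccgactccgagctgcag
XDH: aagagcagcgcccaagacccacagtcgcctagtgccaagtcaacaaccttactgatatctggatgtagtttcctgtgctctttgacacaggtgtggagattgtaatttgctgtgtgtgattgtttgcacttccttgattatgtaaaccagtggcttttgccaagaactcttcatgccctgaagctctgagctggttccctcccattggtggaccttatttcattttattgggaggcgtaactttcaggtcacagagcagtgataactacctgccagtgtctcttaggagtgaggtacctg
ADA: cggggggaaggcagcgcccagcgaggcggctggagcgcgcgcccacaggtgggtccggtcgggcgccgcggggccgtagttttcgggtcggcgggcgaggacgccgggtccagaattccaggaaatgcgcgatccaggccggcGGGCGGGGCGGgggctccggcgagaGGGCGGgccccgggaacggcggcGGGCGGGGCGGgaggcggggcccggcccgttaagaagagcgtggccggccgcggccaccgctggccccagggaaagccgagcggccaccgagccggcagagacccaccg
MTAP: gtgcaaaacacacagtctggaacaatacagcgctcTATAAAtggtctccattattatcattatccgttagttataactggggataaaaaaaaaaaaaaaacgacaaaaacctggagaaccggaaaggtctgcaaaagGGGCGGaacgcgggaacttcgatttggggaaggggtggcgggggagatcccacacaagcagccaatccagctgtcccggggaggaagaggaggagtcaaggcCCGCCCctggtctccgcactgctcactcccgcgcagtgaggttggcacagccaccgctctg
The windows differ in base composition. APRT's was 67.3% G and C with 36 CpG dinucleotides, ADA's 79.3% with 47, MTAP's 53.0% with 15 and XDH's 47.0% with 3, against medians of 58.7% and 14 over 35116 RefSeq windows of the same length. GGGCGG began at positions -80, -62 and -26 from the start site in APRT, at -107, -102, -82, -59 and -54 in ADA, and at -113 and -11 in MTAP. Within ADA, the matches at -107 and -102 overlap by a base, as do those at -59 and -54. The XDH window held no match to any motif searched. RefSeq gave 16 windows for 9 of the 10 members, and GGGCGG was in 11 of the 16 windows, against 45.0% of all windows. The AMPD2 windows starting at 109620664 and 109620892 overlap and share a match, at -14 and -242. Some members have several windows, and 8 of the 9 had a match in at least 1, a count that the share per window does not match in unit. TATAAA was found in 1 of the 16 windows, that of MTAP at -215, against 11.5% of all windows. The E-box CACGTG was found in 1 of the 16 windows, of AMPD2 at -77 (7.26% of all windows), and TGANTCA, the AP-1 site, in 1, of AMPD3 at -185 (7.71%). These are matches of letters and no binding was measured.

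The values are a normalized signal per gene, summed from the authors' transcript values. Library totals ran from 1143850 to 1228979 in control and from 791808 to 969479 at 240 ug/ml, with no overlap between control and any dose. The changes were therefore read on 2 scales: the values as deposited, and the values with every library scaled to the same total. Equal totals raised the median log2 fold change over all genes by 0.17 at 60, 0.31 at 120 and 0.36 at 240 ug/ml. At 240 ug/ml they turned 3306 higher and 3938 lower genes into 7226 higher and 1508 lower. Which scale is nearer to RNA per cell cannot be told apart in these data, and in bulk RNA fewer cells of a kind and less RNA per cell cannot be told apart either. Of 10 proximal tubule markers, 7 were below 1 in all 12 libraries, among them LRP2, which was listed at 0, and CUBN, AQP1 and SLC34A1, while GGT1 ran from 87.4 to 202.0 and PAX8 from 222.4 to 336.3. The summed proximal tubule signal was 392.6 to 423.3 in control and 331.7 to 401.6 at 240 ug/ml, and the epithelial sum 691.0 to 734.5 and 631.0 to 721.7. Within these sums the means went both ways from control to 240 ug/ml: GGT1 from 176 to 99.5 and PAX8 from 230 to 274, EPCAM from 236 to 161, KRT8 from 25.1 to 11.5, CDH1 from 1.87 to 0.233 and KRT19 from 299 to 354. The mesenchymal sum (VIM and CDH2) was 1581 to 1668 in control and 1645 to 1779 at 240 ug/ml. The leukocyte sum was 109.8 to 139.8 in control and 72.2 to 99.1 at 240 ug/ml, nearly all of it CD68, with PTPRC listed at 0. The part of these shifts in the member changes was not tested.

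Of the 10 members, 2 were called at 60 ug/ml, 5 at 120 and 6 at 240, at a limma adjusted p of 0.05. SLC43A3, PNP, MTAP and XDH rose at some dose, and ADA and ADK fell. XDH is among those called at 240 ug/ml but passed the filter on low values only through treated libraries, so it had to be high there to be tested at all. Over all genes tested, 18.9% were called at 60, 36.7% at 120 and 43.1% at 240 ug/ml. The median log2 fold change of the members was 0.02, 0.17 and 0.35, and that of all genes -0.03 at each dose. The 3 libraries of a dose lay wholly apart from the 3 controls for 3, 6 and 7 members, against 36.5%, 49.0% and 52.9% of all genes. With equal totals the members called were 3 (all higher), 6 (all higher) and 8 (7 higher, 1 lower), in place of 1 higher and 1 lower, 3 and 2, and 4 and 2. Over all 16707 genes tested on that scale, 2783 were higher and 649 lower at 60, 6097 and 1360 at 120, and 7226 and 1508 at 240 ug/ml, so the members turned to higher along with the whole table. Without control replicate 2 or replicate 1 of 60 ug/ml, 1 member was called at 60, where 2176 of 16603 and 1946 of 16656 genes were called. The control libraries are shared by the 3 comparisons.

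**Figure D1:**
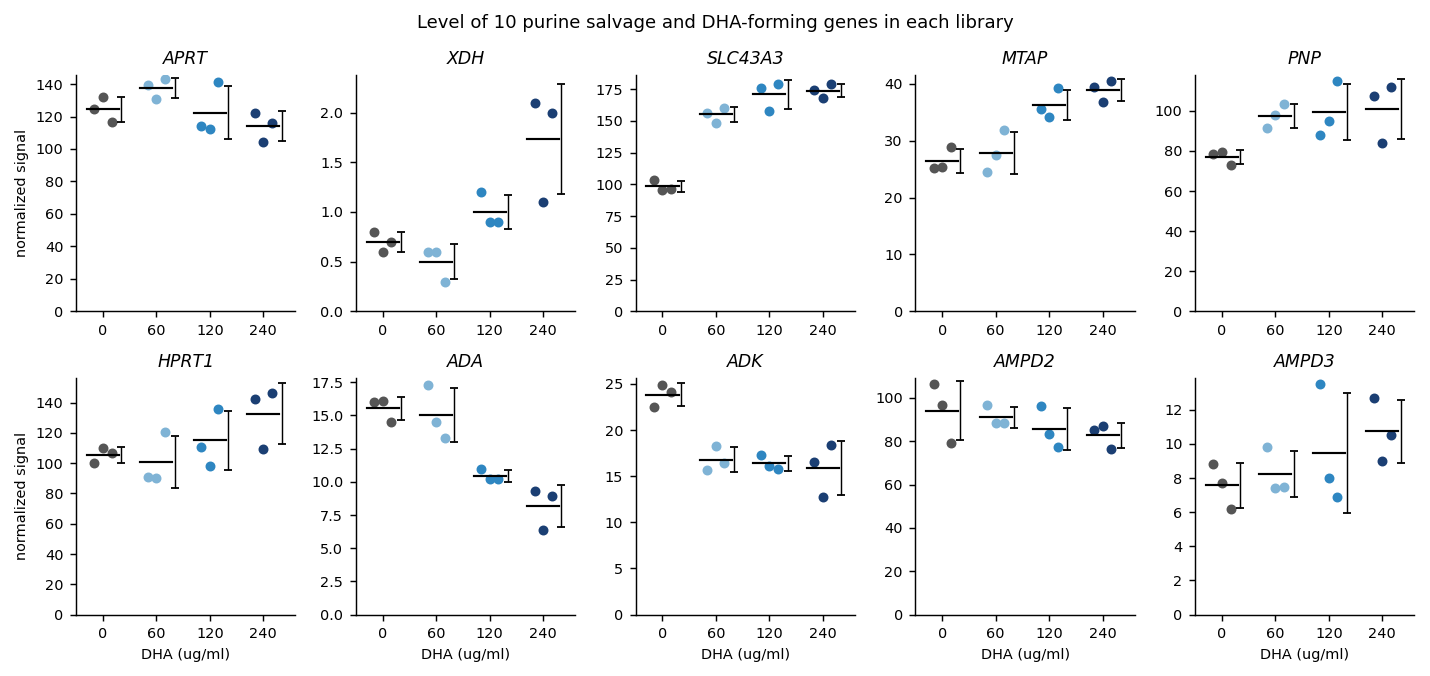
Normalized signal (vertical axis, linear, from 0) of the 10 members in each of the 12 libraries against DHA dose in ug/ml (horizontal axis), with points for libraries, short lines for group means and vertical bars for the SD. SLC43A3 lies at 95.6 to 103.4 in control and at 148.7 or above in every treated library, ADA declines to 6.4 to 9.3 at 240 ug/ml, and XDH stays at 2.1 or below throughout.

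APRT, the enzyme of adenine salvage, showed no called change at any dose. Its transcript level (ENSG00000198931.10, chr16:88809339-88811944, minus strand) was 124.8, 132.1 and 116.8 in the control libraries, 139.4, 131.0 and 142.9 at 60 ug/ml, 113.9, 112.3 and 141.2 at 120, and 122.4, 104.3 and 116.0 at 240. The groups overlapped with control at every dose. The log2 fold changes on log2(value + 1) were 0.15 (95% interval -0.07 to 0.36) at 60, -0.03 (-0.25 to 0.19) at 120 and -0.13 (-0.34 to 0.09) at 240 ug/ml, with limma adjusted p of 0.348, 0.836 and 0.334. At 240 ug/ml all 3 libraries lay below those at 60, with a log2 difference of -0.27 that missed the threshold (adjusted p = 0.0662). On equal totals APRT passed the test as higher at every dose, with log2 fold changes of 0.35, 0.34 and 0.30, where the median of all genes was 0.139, 0.273 and 0.335.

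XDH, the enzyme that makes DHA from adenine, was near the lower end of the measured range and rose at 240 ug/ml. Its level (ENSG00000158125.9, chr2:31334321-31414715, minus strand) was 0.8, 0.6 and 0.7 in the controls, 0.6, 0.6 and 0.3 at 60 ug/ml, 1.2, 0.9 and 0.9 at 120, and 2.1, 1.1 and 2.0 at 240. Every library at 120 and at 240 ug/ml lay above every control, and those at 60 overlapped with control. The mean rose from 0.70 ± 0.10 to 1.73 ± 0.55 (SD, n = 3), which on log2(value + 1) was a change of 0.67 (SE 0.19; limma adjusted p = 0.014). This scale understates the 2.48 times ratio of the means. The change at 120 ug/ml was 0.23 (adjusted p = 0.366), and 240 exceeded 60 ug/ml by 0.85 (adjusted p = 0.00923). XDH passed the filter on low values (at least 1 in 3 libraries) only through the treated libraries, of which 4 reached 1. Without replicate 1 or replicate 3 of 240 ug/ml its call was lost (adjusted p = 0.0556 and 0.0571).

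The XDH sum came from a coding and a short non-coding transcript. The coding XDH-201 (5688 bases) was at 0.4, 0.4 and 0.3 in the controls, 0.4, 0.4 and 0.3 at 60, 0.4, 0.5 and 0.5 at 120, and 0.6, 0.7 and 0.7 at 240 ug/ml. Its libraries at 240 ug/ml lay above all controls, in a table that keeps 1 decimal. XDH-202, a processed transcript of 475 bases, was at 0.4, 0.2 and 0.4 in the controls, 0.2, 0.2 and 0.0 at 60, 0.8, 0.4 and 0.4 at 120, and 1.5, 0.4 and 1.3 at 240 ug/ml. The libraries with the highest XDH sums at 240 ug/ml, replicates 1 and 3, were thus those with the most XDH-202. Neither transcript passed the filter. In a fit without it, chosen after seeing the data, XDH-201 changed at 240 ug/ml by a log2 value of 0.29 (SE 0.14, limma adjusted p = 0.299) and XDH-202 of 0.59 (SE 0.23, adjusted p = 0.181). The call of XDH therefore rests on the sum of both transcripts.

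The balance of transcript signal between the enzymes that compete for adenine was read as the XDH signal per 100 of APRT in the same library, a ratio that no scaling of whole libraries alters. It was 0.641, 0.454 and 0.599 in the controls, 0.43, 0.458 and 0.21 at 60 ug/ml, 1.05, 0.801 and 0.637 at 120, and 1.72, 1.05 and 1.72 at 240. Only the libraries at 240 ug/ml lay wholly above control, and the ratio at 60 and 120 overlapped with it. The log2 ratio differed from control by -0.69 (SE 0.39) at 60, 0.54 (SE 0.26) at 120 and 1.39 (SE 0.28) at 240 ug/ml. A two-sided exact permutation test gave p = 0.2, 0.2 and 0.1, where 0.1 is the smallest that 3 against 3 libraries allow, and 0.2 for each after Benjamini-Hochberg adjustment over the 3 doses. With a pseudocount of 1 the difference at 240 ug/ml was 0.79. The XDH signal in the ratio includes the non-coding XDH-202. That transcript held 46.8% ± 12.2 of it in control, 22.2% ± 19.2 at 60 and 57.6% ± 18.7 at 240 ug/ml (SD, n = 3).

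SLC43A3, an equilibrative carrier of purine nucleobases such as adenine, rose at every dose. Its level (ENSG00000134802.17, chr11:57406954-57427580, minus strand) was 103.4, 95.6 and 96.6 in the controls, 156.5, 148.7 and 160.5 at 60 ug/ml, 175.5, 158.0 and 179.0 at 120, and 174.2, 168.2 and 178.7 at 240. No treated library overlapped with control. Changes on the log2 scale came to 0.65, 0.79 and 0.81 (SE 0.07 each, limma adjusted p = 0.000469, 2.84e-05 and 1.56e-05), and the ratios of the means 1.58, 1.73 and 1.76. Most of the difference was present at the lowest dose: 240 exceeded 60 ug/ml by 0.16, which missed the threshold (adjusted p = 0.118). The call held on both scales and with each library of the groups compared left out in turn. SLC43A3 shares 1349 exon bases on the same strand with ENSG00000254979, which was at 0.4 in control against 1.1 at 240 ug/ml.

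MTAP, which releases adenine from methylthioadenosine, rose at 120 and 240 ug/ml. Its level (ENSG00000099810.19, chr9:21802543-21937651, plus strand) was 25.1, 25.3 and 28.8 in the controls, 24.4, 27.4 and 31.8 at 60 ug/ml, 35.6, 34.1 and 39.2 at 120, and 39.5, 36.8 and 40.4 at 240. The libraries at 60 ug/ml overlapped with control and those at 120 and 240 lay above both. On the log2 scale it changed by 0.07, 0.45 and 0.54 (SE 0.10 each, limma adjusted p = 0.68, 0.00475 and 0.00115), and 240 exceeded 60 ug/ml by 0.47 (adjusted p = 0.00749). Summing protein-coding transcripts alone gave 0.28 at 120 ug/ml (adjusted p = 0.0655). MTAP shares 460 exon bases on the same strand with ENSG00000264545, whose own level was 4.5 in control against 4.7 at 240 ug/ml.

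ADA, which deaminates adenosine and deoxyadenosine, fell at 120 and 240 ug/ml. Its level (ENSG00000196839.12, chr20:44619522-44652233, minus strand) was 16.0, 16.1 and 14.5 in the controls, 17.3, 14.5 and 13.3 at 60 ug/ml, 11.0, 10.2 and 10.2 at 120, and 9.3, 6.4 and 8.9 at 240. The libraries at 60 ug/ml overlapped with control, those at 120 lay below both, and those at 240 lay below all others. The log2 fold changes were -0.05, -0.53 and -0.86 (SE 0.13 each, limma adjusted p = 0.835, 0.00791 and 0.000336). The mean at 240 ug/ml was 0.528 of control, and 240 was below 60 ug/ml by a log2 difference of -0.81 (adjusted p = 0.00278). On equal totals the change at 120 ug/ml was -0.18 (adjusted p = 0.184) and that at 240 was -0.46 (adjusted p = 0.00315). ADA shares 46 exon bases with PKIG on the opposite strand, which was at 40.5 in control against 18.1 at 240 ug/ml, and no source used here gives the strand setting of the counting, so the part of PKIG reads in the ADA values was not tested.

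ADK, which turns adenosine back into AMP, fell at every dose and by nearly the same amount. Its level (ENSG00000156110.13, chr10:74151185-74709303, plus strand) was 22.5, 24.9 and 24.1 in the controls, 15.7, 18.3 and 16.4 at 60 ug/ml, 17.3, 16.1 and 15.8 at 120, and 16.5, 12.7 and 18.4 at 240. All treated libraries lay below all controls, and the 3 doses overlapped with each other. Log2 fold changes of ADK were -0.48, -0.51 and -0.57 (SE 0.12 each, limma adjusted p = 0.0146, 0.00508 and 0.00218). On equal totals they were -0.28, -0.16 and -0.16 and none was called (adjusted p = 0.0939, 0.26 and 0.241), with medians over all genes of 0.139, 0.273 and 0.335. The call at 60 ug/ml was also lost without control replicate 2 (adjusted p = 0.0517) and without replicate 1 of 60 ug/ml (0.0569). With a trend on GC content removed, ADK at 60 ug/ml was at -0.33 (adjusted p = 0.0821). At that dose the fold change correlated with GC content across genes with r = 0.26, where genes are not independent replicates. With the GC trend removed ADK was still called at 120 (-0.47) and 240 ug/ml (-0.63). It was called at all 3 doses with median-ratio scaling (-0.46, -0.46 and -0.53) and quantile scaling (-0.47, -0.5 and -0.58). The same held with a length trend removed (-0.44, -0.41 and -0.46).

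PNP, which splits inosine and guanosine to their bases, rose at 120 and 240 ug/ml, with calls close to the threshold. Its level (ENSG00000198805.11, chr14:20468954-20477094, plus strand) was 78.3, 79.4 and 73.2 in the controls, 91.3, 97.7 and 103.3 at 60 ug/ml, 88.1, 94.8 and 115.0 at 120, and 107.5, 84.0 and 111.7 at 240. No treated library overlapped with control. PNP changed by 0.34, 0.36 and 0.38 (SE 0.12 each, limma adjusted p = 0.0722, 0.0361 and 0.0236). The call at 120 ug/ml was lost without any 1 of the 3 controls or without replicate 2 or 3 of that dose (log2 fold changes of 0.25 to 0.38, adjusted p between 0.0581 and 0.132). The call at 240 was lost without control replicate 1 or 3 or replicate 1 or 3 of that dose (log2 fold changes of 0.30 to 0.39, adjusted p between 0.0514 and 0.0931). On equal totals PNP was called at all 3 doses, at 0.54, 0.72 and 0.80.

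HPRT1, which salvages hypoxanthine and guanine, was not called at any dose as deposited. Its level (ENSG00000165704.14, chrX:134460153-134520513, plus strand) was 100.0, 110.4 and 106.8 in the controls, 91.2, 90.2 and 120.9 at 60 ug/ml, 110.7, 98.4 and 136.1 at 120, and 142.2, 109.5 and 146.6 at 240. Replicates 1 and 3 at 240 ug/ml lay above all controls and replicate 2 among them. The log2 fold changes were -0.08, 0.11 and 0.32 (SE 0.15 each, limma adjusted p = 0.762, 0.604 and 0.112), with a 95% interval at 240 ug/ml of -0.01 to 0.64. Without replicate 2 of 240 ug/ml the change there was 0.45 (adjusted p = 0.0365), and on equal totals HPRT1 was called at 120 (0.47) and 240 ug/ml (0.74).

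AMPD2 and AMPD3 deaminate AMP to IMP and so lead adenine nucleotides back to the hypoxanthine branch. AMPD2 (ENSG00000116337.15, chr1:109616104-109632051, plus strand) was at 106.2, 96.6 and 79.2 in the controls, 96.7, 88.2 and 88.4 at 60 ug/ml, 96.4, 83.3 and 77.2 at 120, and 85.2, 87.0 and 76.2 at 240. Every dose overlapped with control, with log2 fold changes of -0.04, -0.13 and -0.17 (SE 0.11 each, limma adjusted p = 0.871, 0.407 and 0.245). AMPD3 (ENSG00000133805.15, chr11:10308313-10507579, plus strand) was at 8.8, 7.7 and 6.2 in the controls, 9.8, 7.4 and 7.5 at 60 ug/ml, 13.5, 8.0 and 6.9 at 120, and 12.7, 9.0 and 10.5 at 240. All 3 libraries at 240 ug/ml lay above control, yet the change of 0.45 (SE 0.21) missed the threshold (adjusted p = 0.11), as did 0.11 at 60 and 0.25 at 120 ug/ml (0.775 and 0.395). AMPD3 was called at 240 ug/ml with coding transcripts alone (0.54, adjusted p = 0.00367; at 120 ug/ml 0.37, adjusted p = 0.0312) and with a trend on GC content removed (0.57, adjusted p = 0.0408). On equal totals AMPD3 was called at 120 (0.58) and 240 ug/ml (0.84), and AMPD2 at no dose. AMPD2 shares 132 exon bases on the same strand with GNAI3, which was at 29.4 in control against 31.5 at 240 ug/ml.

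**Figure D2:**
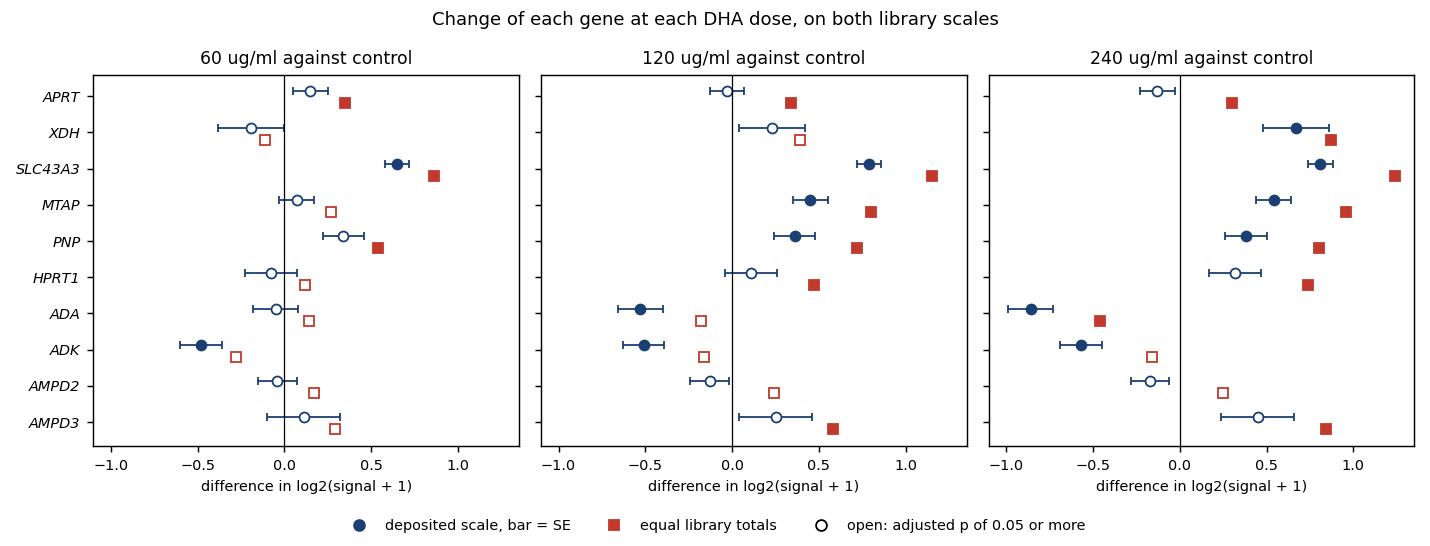
Log2 fold change on log2(value + 1) against control (horizontal axis) of each member at 60, 120 and 240 ug/ml, as deposited (circles, bars: SE) and on equal library totals (squares), with filled symbols for a limma adjusted p under 0.05. SLC43A3 stands above 0 at all doses on both scales (0.65 to 0.81 as deposited), while ADK is called only as deposited and APRT only on equal totals.

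The doses were also compared with each other. Between 60 and 120 ug/ml limma called 0 members and 2.14% of all genes. At an unadjusted p under 0.05 there were 3 members (XDH, ADA and MTAP) and 4044 of 16789 genes. Without replicate 3 of 60 ug/ml it called 2 members, and the calls over all genes went from 360 to 2355 of 16696. Between 120 and 240 ug/ml it called 0 members and 0.0% of all genes, with 2 members (XDH and ADA) and 1331 of 16789 genes at an unadjusted p under 0.05. Between 60 and 240 ug/ml it called 3 members, XDH and MTAP as higher and ADA as lower, against 24.8% of all genes. In the test for any difference among the 4 groups 5 members were called, XDH, ADA, ADK, MTAP and SLC43A3, against 42.7% of all genes, and PNP missed the threshold (adjusted p = 0.0579). SLC43A3 was thus called against control from 60 ug/ml on with no called step after it, as was ADK on the deposited scale with all libraries, whereas ADA, MTAP and XDH had none called at 60 ug/ml. XDH passed the filter on low values only through libraries at 120 and 240 ug/ml. It therefore had to be high there to be counted in any of these tests.

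Dividing each member by APRT in the same library gave values free of the library total. This reading was chosen after seeing the data and was not tested. The ratio of SLC43A3 to APRT was 0.793 ± 0.0601 in control, 1.13 ± 0.00705 at 60, 1.41 ± 0.137 at 120 and 1.53 ± 0.0956 at 240 ug/ml (SD, n = 3). Such ratios also carry the differences of APRT, whose mean was 124.6 in control, 137.8 at 60, 122.5 at 120 and 114.2 at 240 ug/ml. From 60 to 240 ug/ml the mean of SLC43A3 itself went from 155.2 to 173.7 and that of PNP from 97.4 to 101.1. The ratio of PNP to APRT went from 0.618 ± 0.015 to 0.882 ± 0.0789 at 240 ug/ml and that of MTAP from 0.213 ± 0.0294 to 0.341 ± 0.0162. The ratio of ADA went from 0.125 ± 0.00321 to 0.0714 ± 0.00866, and that of ADK from 0.192 ± 0.0133 to 0.122 ± 0.015 at 60 and 0.138 ± 0.0187 at 240 ug/ml. SLC43A3, PNP and ADK were apart from control at all doses and ADA and MTAP at 120 and 240 ug/ml. HPRT1, at 0.85 ± 0.058 and 1.16 ± 0.107, and AMPD3, at 0.0606 ± 0.00895 and 0.0935 ± 0.00911, were apart at 240 ug/ml, and AMPD2 overlapped with control at every dose.

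**Figure D3:**
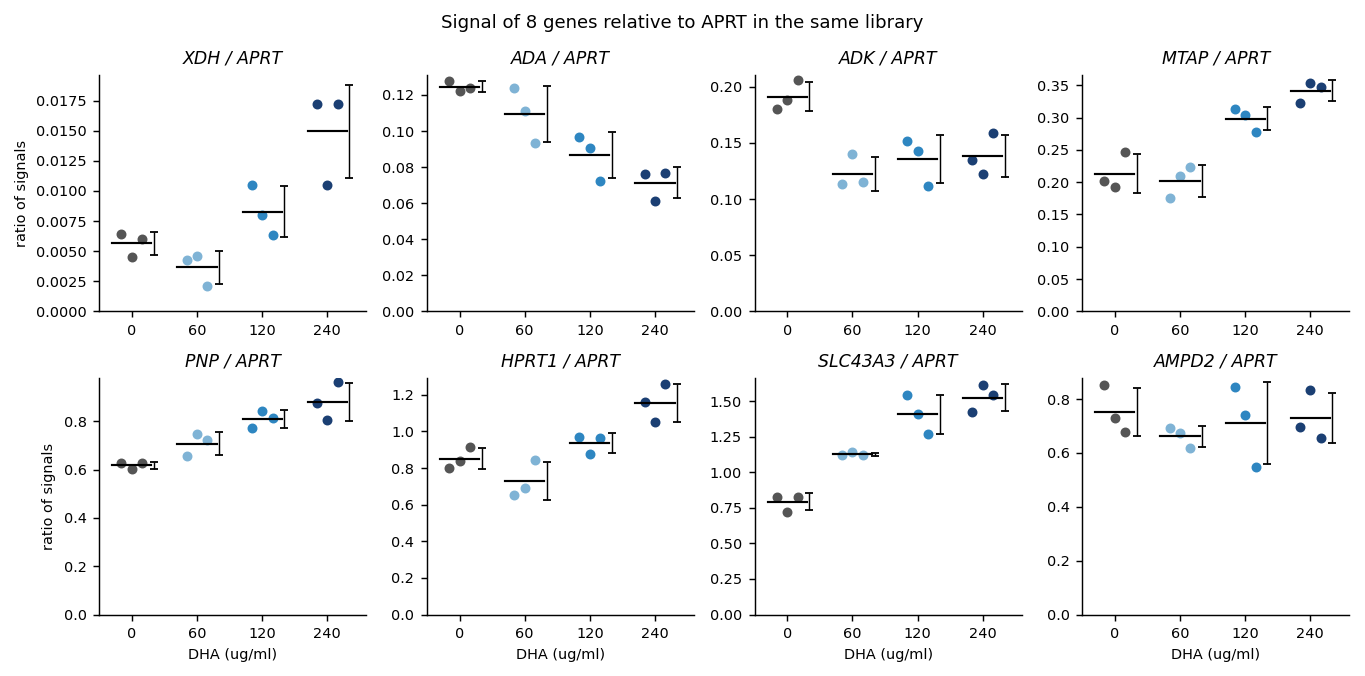
Signal of 8 members divided by that of APRT in the same library (vertical axis, ratio, from 0) against DHA dose in ug/ml, with points for libraries, short lines for group means and vertical bars for the SD. The SLC43A3 ratio is 0.724 to 0.829 in control and above 1 in every treated library, and the ADA ratio at 240 ug/ml (0.0614 to 0.0767) lies below all controls.

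The members had 122 transcripts in the table, of which 113 were above 0 in some library and 59 were tested. Limma called 3 as higher and 0 as lower at 60 ug/ml, 7 and 3 at 120, and 12 and 4 at 240, against 3.69%, 15.3% and 20.7% of the 54340 transcripts tested. SLC43A3 held 14 of the tested transcripts and 8 of those called higher at 240 ug/ml. Its main transcript, SLC43A3-203, was at 72.9, 72.7 and 67.2 in control against 113.9, 97.4 and 119.8 at 240 ug/ml (0.63, SE 0.09, adjusted p = 0.00112). The groups did not overlap, yet its share of the gene's signal was 72.0% ± 3.5 in control against 63.4% ± 4.87 at 240 ug/ml (SD, n = 3). Of the minor transcripts, SLC43A3-204 was at 2.0, 1.0 and 2.0 in control against 5.7, 8.9 and 9.1 at 240 ug/ml (1.74, SE 0.21, adjusted p = 0.000424). No source used here says whether deposited values are scaled to transcript length, so shares of transcripts of unequal length are shares of signal, not of molecules.

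Single transcripts of other members were called where the gene sum was not. AMPD3-202, a coding transcript, was at 2.1, 2.3 and 2.2 in the controls, 2.9, 3.0 and 3.0 at 60, 3.0, 4.3 and 2.3 at 120, and 4.4, 4.7 and 4.6 at 240 ug/ml. Its libraries at 240 lay above all others, and it rose by 0.80 there (SE 0.16, limma adjusted p = 0.00495), while AMPD3-203 was at 1.87 ± 0.681 and 1.6 ± 0.608. AMPD2-207 was at 2.1, 1.3 and 1.1 in control and was listed at 0 in all 3 libraries at 240 ug/ml (adjusted p = 0.00939). The largest AMPD2 parts were the coding AMPD2-202 and AMPD2-220, a transcript with a retained intron that held 29.7% ± 2.17 of the gene's signal in control, and neither was called. APRT-201 and APRT-202 carried 67.9% ± 4.14 and 27.1% ± 4.55 of APRT in control and were not called, and the minor APRT-211 rose (1.23 to 2.2, adjusted p = 0.0406 at 240 ug/ml).

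The falls of ADA and ADK at 240 ug/ml were also called for their main coding transcripts. ADA-201 was at 13.9, 13.2 and 13.3 in control against 7.7, 5.4 and 6.3 at 240 ug/ml (-0.97, SE 0.12, limma adjusted p = 0.000467), and ADK-202 at 20.0, 22.8 and 20.5 and at 14.3, 10.3 and 16.0 (-0.62, SE 0.16, adjusted p = 0.0171). Both fell without overlap. At 60 ug/ml ADK-202 missed the threshold (-0.52, SE 0.16, limma adjusted p = 0.0978), where the ADK gene sum was called. MTAP-214 was at 8.0, 7.2 and 8.0 in control against 10.6, 12.4 and 11.1 at 240 ug/ml (0.50, adjusted p = 0.0132). MTAP-202, annotated as a target of nonsense-mediated decay, was at 5.8, 6.9 and 5.9 and at 11.1, 7.3 and 15.5, and missed the threshold (adjusted p = 0.0573). The coding share of the MTAP signal was 54.2% ± 1.88 in control against 49.0% ± 3.33 at 240 ug/ml. No transcript of PNP or HPRT1 was called, and HPRT1-201 was at 101.0 ± 5.22 in control against 126.0 ± 16.0 at 240 ug/ml.

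**Figure D4:**
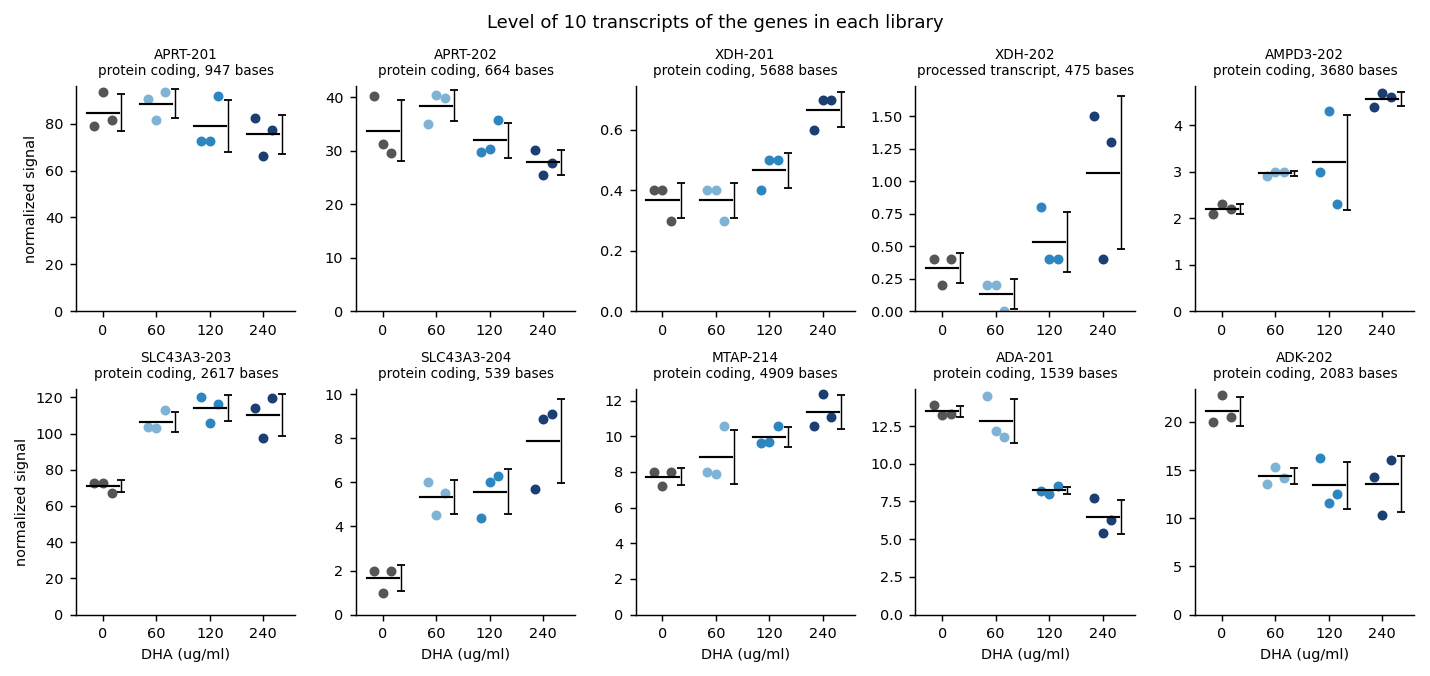
Normalized signal (vertical axis, from 0) of 10 transcripts of the members in each library against DHA dose in ug/ml, with points for libraries, short lines for group means and vertical bars for the SD. AMPD3-202 at 240 ug/ml (4.4 to 4.7) lies above all its other libraries, and XDH-202 at 240 ug/ml is high in 2 libraries (1.5 and 1.3) and at a control level in the other (0.4).

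The genes around the members were read in 6 lists of 66 genes, of which 55 were tested. At 60 ug/ml 10 were higher and 5 lower, at 120 9 and 14, and at 240 15 and 13, where 8.89% and 10.0%, 15.9% and 20.8%, and 19.7% and 23.5% of all genes were higher and lower. On equal totals the counts were 13 and 1, 26 and 4, and 31 and 3, so the split between directions differed between the scales, as it did over all genes (2783 higher and 649 lower, 6097 and 1360, and 7226 and 1508 on equal totals). Genes named below had the largest changes among those called in their list at 240 ug/ml, unless said to be named after their values were seen.

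Nucleotidases, which strip phosphate from nucleotides to yield nucleosides, had 2 of 7 tested genes higher and 2 lower at 240 ug/ml (median -0.13). NT5E, the cell surface enzyme also known as CD73 that makes adenosine from extracellular AMP, was 6.77 ± 2.04 in control, 16.0 ± 4.05 at 60, 27.1 ± 1.12 at 120 and 32.1 ± 1.72 at 240 ug/ml (SD, n = 3), a rise of 2.12 on the log2 scale (SE 0.19, limma adjusted p = 1.59e-05). It was called at every dose. NT5C3A rose by 0.47 (adjusted p = 0.00772) and NT5C3B fell by 0.46 (adjusted p = 0.0044), both of which act mainly on pyrimidine or modified guanine nucleotides, and the fall was -0.04 on equal totals (adjusted p = 0.707).

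In the molybdenum cofactor list, 1 of 6 tested genes was higher and 2 lower at 240 ug/ml (median -0.12). MOCOS, which adds the sulphur that XDH needs in its cofactor, rose from 9.03 ± 1.27 to 13.3 ± 1.30, 15.5 ± 0.306 and 19.5 ± 2.00 (SD, n = 3). Its log2 fold changes were 0.52, 0.73 and 1.04 (limma adjusted p = 0.00802, 0.000465 and 4.13e-05), and it was called at every dose on both scales. SUOX, the sulphite oxidase, fell by 0.56 (adjusted p = 0.00118) as deposited and was at -0.16 on equal totals (adjusted p = 0.233), and MOCS2, which helps to build the cofactor, was lower by 0.35 at an adjusted p that rounds to the threshold (0.05) and was 0.07 on equal totals. AOX1, an aldehyde oxidase related to XDH, was too low to be tested and is given because it belongs to the same enzyme family, chosen after its values were seen. It was at 0.8, 1.3 and 1.6 in the controls, 0.4, 0.1 and 0.4 at 60 ug/ml, 0.2, 0.7 and 0.7 at 120, and 0.2, 0.1 and 0.5 at 240, with every treated library below every control.

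The polyamine and methionine salvage list, whose pathway makes and reuses methylthioadenosine, had 5 of 11 tested genes higher and 2 lower at 240 ug/ml (median 0.0). ODC1, the first enzyme of polyamine synthesis, rose from 56.7 ± 1.71 to 156.5 ± 20.5 (1.44, limma adjusted p = 6.1e-05), and SRM, spermidine synthase, whose reaction yields methylthioadenosine, from 103.1 ± 4.73 to 195.3 ± 5.26 (0.92, adjusted p = 4.96e-05). MAT2B, a regulatory subunit of methionine adenosyltransferase, fell from 36.9 ± 1.90 to 22.3 ± 2.27 (-0.71, adjusted p = 0.000114). MAT2A, another subunit of that enzyme, named after its values were seen, had a higher signal and went the other way. Its mean rose from 252.5 in control to 402.1 at 240 ug/ml (0.67, limma adjusted p = 0.000123), and it was called as higher at every dose. MTAP, the member that consumes methylthioadenosine, rose at 120 and 240 ug/ml as above, and ODC1 and SRM were called from 60 ug/ml on.

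Purine interconversion had 7 of 24 tested genes higher and 6 lower at 240 ug/ml (median -0.03, the same as all genes). AK5, an adenylate kinase, rose from 22.8 ± 5.61 to 60.9 ± 4.63 (1.40, limma adjusted p = 2.81e-05), ADSS1, an enzyme of AMP synthesis from IMP, fell from 6.73 ± 1.85 to 2.37 ± 0.586 (-1.19, adjusted p = 0.00137), and IMPDH1, which leads IMP to guanine nucleotides, rose from 47.3 ± 1.11 to 78.5 ± 2.11 (0.72, adjusted p = 4.96e-05). ADSS2 and IMPDH2, named after their values were seen, had a higher signal than ADSS1 and IMPDH1 and went the other way. ADSS2 rose from 72.3 ± 3.15 to 97.9 ± 4.27 (0.43, adjusted p = 0.00192). IMPDH2 fell from 217.1 ± 28.6 to 160.3 ± 15.2 (-0.43, adjusted p = 0.00715). Of 4 tested genes of PRPP supply, the co-substrate of APRT and HPRT1, limma called 0 at 240 ug/ml (1 at an unadjusted p under 0.05) and 1, PRPSAP1, as lower at 120, named after its value was seen. Of 3 nucleoside transporters tested, SLC29A4 fell from 17.7 ± 1.78 to 6.13 ± 0.153 (-1.39, adjusted p = 6.1e-05). SLC29A1, named after its values were seen, had a higher signal (75.3 ± 1.84 in control). It was called as higher at 60 (0.30, limma adjusted p = 0.0177) and 120 ug/ml (0.31, 0.00805) but not at 240 (0.11, 0.28).

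**Figure D5:**
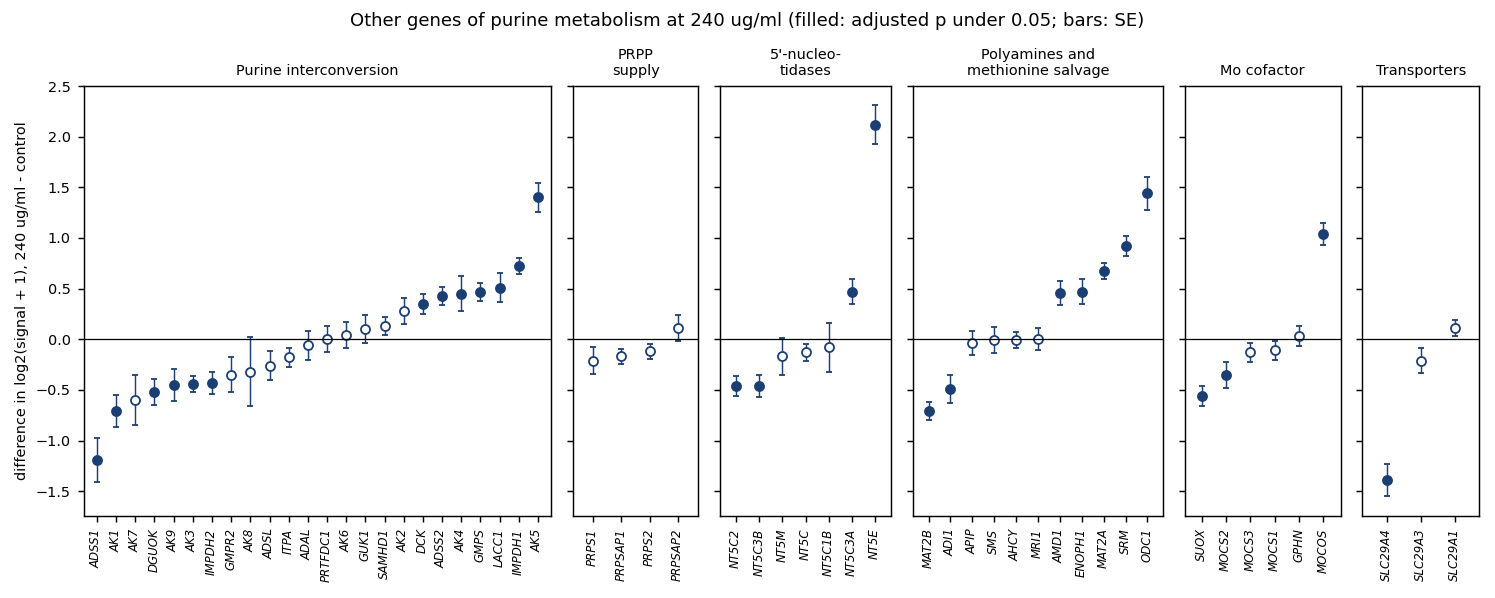
Log2 fold change on log2(value + 1) at 240 ug/ml against control (vertical axis, bars: SE) of the tested genes around the members, by list, with filled points for a limma adjusted p under 0.05. NT5E (2.12), ODC1 (1.44) and AK5 (1.40) stand highest, and SLC29A4 (-1.39) and ADSS1 (-1.19) lowest.

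Genes whose levels ran most like those of APRT over the 12 libraries, by Pearson correlation of log2(value + 1), were AURKAIP1 (0.961), SSNA1 (0.956), SRA1 (0.942), SNRPB (0.937) and TIMM13 (0.936). Those most like XDH were CHN1 (0.892), ENSG00000272140 (0.892), DDIT3 (0.883), CLUAP1 (0.875) and CNTF (0.867). These correlations take in the differences between doses and between library totals and are a description, with no test.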

How the data were processed

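The 12 libraries were made from poly(A) RNA by random priming with dUTP in the second strand and read in pairs, per the labels' protocols. The authors deposited a normalized signal for each of 267165 Ensembl transcripts, to 1 decimal, and the submitters' processing notes name GRCh38.p14. No source used here names the aligner, quantifier, annotation release or unit. Depth is unknown, so no counting interval is given.

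Transcripts were matched without version to GENCODE 29 (202305, or 75.72%, carrying 93.8% to 94.7% of each total) and summed per gene. Positions and transcript names are GENCODE's. Genes with at least 1 in 3 or more libraries were fitted with limma 3.58.1 (trend, R 4.3.3) on log2(value + 1) with 4 group means over all 12 libraries, two-sided, with Benjamini-Hochberg adjustment over 16789 genes or 54340 transcripts and a threshold of 0.05. A count test had been planned only for counts, which the table does not hold. Fold changes on this scale understate those of low genes. The fit was tested on simulated data. The members and lists were chosen with earlier results of these data known. Named genes outside the members are at most 3 called genes per list, those with the largest changes at 240 ug/ml, and for APRT and XDH the 5 genes with the highest correlation. Genes said to be named or chosen after their values were seen fall outside this rule. Alternatives were other pseudocounts, filters, scalings, a GC or length trend, a replicate block, coding transcripts alone and leaving out each library.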

Additional observations from a re-analysis of the deposited data

How the results depend on the processing

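Across the alternatives tried, 158 of 172 counts and ratios moved little (within 1.5 times, or within 1 SD for the ratios), and 524 of 597 single fold changes stayed on the same side of 0 and of the threshold. The tally of counts ignores direction. On equal totals 3 higher and 2 lower members at 120 ug/ml became 6 and 0, which it takes as little moved. With coding transcripts alone, 2 higher and 1 lower between 240 and 60 ug/ml became 0 and 2. It also takes in 240 against 120 ug/ml, where 0 members were called under every alternative. Equal totals gave 8 members called among the 4 groups, and 8244 of all 16707 genes. Between 120 and 60 ug/ml, 2 members were called with a filter of 5 in 3 libraries (848 of all 11469 genes), 1 with coding transcripts alone (1031 of 12168). Between 240 and 60 ug/ml, 5 were called on equal totals (4859 of 16707 genes), with quantile scaling (4353 of 16789) and with a length trend (3883 of 16776). The XDH to APRT log2 ratio differed from control by -0.11 at 60 ug/ml with coding transcripts alone and by 0.79 at 240 with a pseudocount of 1. XDH has no value under the filter of 5 or with coding transcripts alone in the gene fit, as it failed the filter there. With each library of the groups compared left out in turn, members called ran from 1 to 2 at 60, 4 to 5 at 120 and 4 to 7 at 240 ug/ml. They ran from 4 to 7 among the 4 groups. Between doses they ran from 0 to 2 for 120 against 60, 0 to 0 for 240 against 120 and 3 to 4 for 240 against 60. In the same fits, calls over all 16603 to 16696 genes ran from 1877 to 2774, 4723 to 5420 and 5828 to 6817 at the 3 doses. They ran from 5515 to 7754 among the 4 groups, 0 to 2355 between 120 and 60 and 2070 to 5008 between 240 and 60. Leaving out a library of another group also changed the calls over all genes, as the spread is shared. At 60 ug/ml 3444 were called without replicate 2 of 240 ug/ml. Without replicate 3 of 60 ug/ml, 6436 were called at 120 and 7443 at 240 ug/ml. The ratio difference ran from -0.89 to -0.33, 0.36 to 0.72 and 1.24 to 1.62.

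The changes of sign were all of values not called on the deposited scale. Of the values with the other sign, APRT on equal totals was called (adjusted p = 0.00837 at 120 and 0.0118 at 240 ug/ml). APRT at 120 ug/ml was 0.34 on equal totals, 0.02 with median-ratio scaling, 0.08 with quantile scaling, 0.16 with a length trend, and between -0.14 and 0.03 with a library left out (0.01 and 0.02 among them). APRT at 240 was 0.3 on equal totals, 0.01 with quantile scaling and 0.1 with a length trend. HPRT1 at 60 was 0.12 on equal totals and 0.08 with a GC trend, and at 120 was between -0.02 and 0.21 with a library left out. ADA at 60 was 0.14 on equal totals, 0.02 with a length trend and -0.15 to 0.03 with a library left out, and MTAP at 60 was -0.03 without replicate 3. AMPD2 was 0.17, 0.24 and 0.25 at the 3 doses on equal totals, and at 60 was 0.01 with quantile scaling and -0.15 to 0.06 with a library left out. With a library left out AMPD3 was -0.01 to 0.21 at 60 and -0.01 to 0.43 at 120. XDH-201 alone was at 0 at 60. The cause was not tested.

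Replicate numbers were not taken to pair libraries in the main fit. Of 18 same-numbered pairs, 6 had deviations correlated above 0.1 (-0.025 to 0.236), and the 36 other pairs ran from -0.21 to 0.111. Of 12 libraries, 9 correlated best with their own number. Whether the numbers pair libraries was not tested. With the replicate block, members called were 2, 5 and 8 at the 3 doses, 6 among the 4 groups, 2 between 120 and 60 and 4 between 240 and 60 ug/ml, and HPRT1 (adjusted p = 0.0394) and AMPD3 (0.0149) were called by limma at 240. Calls over all 16789 genes rose with the block too, to 3983, 6926 and 7901 at the 3 doses and from 360 to 1785 between 120 and 60 ug/ml. They also rose to 8257 among the 4 groups and 5134 between 240 and 60 ug/ml. With the block and a GC trend together, 1 member was called between 120 and 60 (1069 of all 16776 genes) and 5 between 240 and 60 (3599). In that fit HPRT1 and ADK at 60 were 0.08 and -0.33 (limma adjusted p = 0.099 for ADK).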
